A study of Mus musculus with 6 samples.

Results

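Apoe and 9 genes of cholesterol and lipid efflux were followed in microglia, the resident macrophages of the brain, of wild-type and Lyl1-deficient mice. The genes are Apoe, the transporters Abca1 and Abcg1, the lipase Lpl, the receptor Lrp1, the nuclear receptors Nr1h2, Nr1h3 and Rxra, and the sterol enzymes Soat1 and Ch25h. They were picked by name from the 48587 genes of the count table, after the higher Apoe count of the knockout samples in these data was known. The differences between genotypes given for these genes are therefore a description. Of the 10 genes, 8 had enough reads to be tested. Nr1h3 and Ch25h did not.

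Both groups were C57BL/6 mice at postnatal day 42, with 3 samples of wild-type genotype and 3 labelled Lyl1 KO. Each sample was about 1000 sorted microglia, and polyadenylated RNA was sequenced after PCR amplification of the cDNA. How the Lyl1 allele was made, the sorting markers, the sex of the animals and whether each sample came from its own animal were not given in the sources used here. All p-values thus reflect spread among these samples only, part of which may be technical. Lyl1 belongs to the basic helix-loop-helix transcription factors active in blood-forming cells. The series title links it to microglia development and neuropsychiatric disorders.

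ApoE is the main lipid carrier of brain lipoproteins and is made by astrocytes, by macrophages of the brain borders and, at lower levels, by microglia, which raise it in disease-associated states. ABCA1 and ABCG1 move cholesterol and phospholipid from the cell onto ApoE-containing particles. The liver X receptors, encoded by Nr1h3 (LXR alpha) and Nr1h2 (LXR beta), pair with the retinoid X receptor RXR alpha (Rxra) and, when bound by oxysterols, switch on Apoe, Abca1, Abcg1 and Lpl. Soat1 esterifies cholesterol for storage, Ch25h makes the oxysterol 25-hydroxycholesterol, and LRP1 takes up ApoE particles.

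The Lyl1 protein binds E-boxes (CANNTG) together with other helix-loop-helix proteins, so the promoters of the genes that the comparison turns on were read for these letters. The 300 bases from 250 before to 50 after a RefSeq start (GRCm38.p6) are printed below in the gene's own direction, with E-boxes in capitals. Apoe has 3 annotated starts, of which the first (chr7:19699139-19699438, minus strand) is the start of the full gene model and the second (chr7:19698572-19698871) lies inside it. Abca1 (chr4:53159846-53160145, minus strand) is shown as another LXR target, and Nr1h2 (chr7:44553916-44554215, minus strand) and the first of 2 starts of Nr1h3 (chr2:91195067-91195366, minus strand) as a pair of related genes of which 1 was read at a steady level and the other almost not at all.
Apoe start 1: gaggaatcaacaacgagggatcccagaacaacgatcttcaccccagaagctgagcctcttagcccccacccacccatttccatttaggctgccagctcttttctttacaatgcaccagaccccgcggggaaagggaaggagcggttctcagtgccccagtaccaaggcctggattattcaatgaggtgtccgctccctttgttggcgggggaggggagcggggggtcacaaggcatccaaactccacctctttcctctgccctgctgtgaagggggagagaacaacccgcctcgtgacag
Apoe start 2: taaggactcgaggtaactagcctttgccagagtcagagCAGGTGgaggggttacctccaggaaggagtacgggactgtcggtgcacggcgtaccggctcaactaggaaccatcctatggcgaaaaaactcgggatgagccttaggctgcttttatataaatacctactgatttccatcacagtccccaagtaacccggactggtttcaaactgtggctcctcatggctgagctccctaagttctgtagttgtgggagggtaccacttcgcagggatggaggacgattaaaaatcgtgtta
Abca1: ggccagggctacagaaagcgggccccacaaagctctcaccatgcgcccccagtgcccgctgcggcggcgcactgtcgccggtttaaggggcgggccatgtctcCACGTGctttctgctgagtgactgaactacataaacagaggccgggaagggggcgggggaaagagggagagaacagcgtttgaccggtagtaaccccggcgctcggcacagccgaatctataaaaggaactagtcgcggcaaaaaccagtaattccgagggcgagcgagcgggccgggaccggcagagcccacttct
Nr1h2: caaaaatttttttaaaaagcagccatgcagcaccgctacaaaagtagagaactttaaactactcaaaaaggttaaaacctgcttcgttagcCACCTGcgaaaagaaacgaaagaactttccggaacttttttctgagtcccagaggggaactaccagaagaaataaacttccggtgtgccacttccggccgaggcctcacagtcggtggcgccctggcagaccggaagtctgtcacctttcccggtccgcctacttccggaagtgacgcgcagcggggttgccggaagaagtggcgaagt
Nr1h3 start 1: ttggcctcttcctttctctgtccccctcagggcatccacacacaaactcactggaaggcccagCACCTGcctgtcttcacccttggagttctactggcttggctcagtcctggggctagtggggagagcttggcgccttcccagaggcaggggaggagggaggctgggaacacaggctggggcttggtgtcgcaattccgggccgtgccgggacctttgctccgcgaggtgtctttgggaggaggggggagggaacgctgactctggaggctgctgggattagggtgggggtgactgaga

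No E-box was found in the first Apoe window, and the second window holds CAGGTG, beginning 212 bases before that start. Abca1 holds CACGTG, 147 bases before its start, Nr1h2 holds CACCTG, 159 bases before, and Nr1h3 holds CACCTG, 187 bases before. An E-box on either strand occurs in 72.3% of 32851 promoters of this length, so a match is common. The nuclear receptor half-site AGGTCA, in 16.3% of all promoters, was in none of these 5 windows. Among the 8 genes with a promoter entry it occurred only in the second Rxra window, where 2 copies were found. The Nr1h2 window holds 19 CpG and the first Nr1h3 window 8, against a median of 7 over all promoters. Both Nr1h3 windows lie inside the gene model, which spans 91184061 to 91202834. The second, not printed here, holds 10 CpG and no E-box. These letters describe the windows and are no evidence of binding.

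Total counts ran from 12753945 to 27378614 per sample. Reads on Lyl1, the targeted gene, numbered 683, 1399 and 839 in wild-type samples 1 to 3 against 205, 237 and 410 in knockout samples 1 to 3, lower in every knockout sample but not absent. Levels are given below as CPM, reads scaled to a common library total after TMM scaling. The microglia markers Csf1r (wild-type mean 11351 ± 576 CPM, knockout mean 11070.5 ± 596 CPM; SD over 3 samples) and P2ry12 (6729 ± 330 and 7825 ± 944 CPM) were high in both genotypes. Of 13 microglia markers 6 were higher in knockout and 7 lower, and edgeR called 0. The genotypes did not overlap for 1 higher marker, P2ry12, and 3 lower, where 5.97% of all tested genes were higher and 5.19% lower. Among the lower were Aif1 (1152 ± 137 and 646 ± 110 CPM) and Fcrls (5469 ± 224 and 3328 ± 782 CPM), named after their values were seen. Wild-type samples 1 and 2 and knockout sample 1 stood apart, with 12827 to 13085 genes detected against 14923 to 15652 in the other samples. Xist reached 349 and 412 CPM for knockout samples 1 and 3 and lay from 0.203 to 1.41 CPM in knockout sample 2 and the wild-type samples, with Kdm5d of the Y chromosome the other way, so sex and genotype were partly confounded.

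Apoe (ENSMUSG00000002985.16, GRCm38 chromosome 7, 19696109 to 19699188, minus strand, 5 merged exons) was higher in all 3 knockout samples. It was at 505, 1949 and 676 CPM in wild-type samples 1 to 3, from 5734, 49061 and 14182 reads. In knockout samples 1 to 3 it was at 2973, 4406 and 4210 CPM, from 67528, 86688 and 121046 reads. The genotypes did not overlap: the lowest knockout sample was 1.53 times the highest wild-type sample. In wild type Apoe ranked 272, 52 and 144 among all genes by reads, and in knockout 31, 21 and 20.

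The means were 1044 ± 789 CPM in the wild-type samples and 3863 ± 777 CPM in the knockout samples (SD, n = 3 each), a 3.70-fold difference. Apoe's log2 fold change of 1.89 had a standard error of 0.49, and edgeR's quasi-likelihood test over 10394 genes gave adjusted p = 0.9999. No gene in the table was called by that test (0% of those tested), and none of the 8 tested genes of this group was. Lyl1, the targeted gene, was not called by edgeR either (log2 fold change -2.14; edgeR, adjusted p = 0.9999). DESeq2 run on every gene with a read called Lyl1 (adjusted p = 0.0115), and DESeq2 on the genes that edgeR tested did not (adjusted p = 0.156). Samples of one genotype varied widely in the edgeR fit, with a common biological coefficient of variation of 1.27. A gene that was not called is therefore not shown to be unchanged. At an unadjusted p under 0.05 the group had 1 higher gene, Apoe, and 0 lower, where 1.16% of all tested genes passed as higher and 1.67% as lower. Since Apoe was picked for this difference, nothing is read from that count.

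The call on Apoe turned with the fit. Without the low-count filter edgeR called it (adjusted p = 0.00594), 1 of 8 genes called among 22005, or 0.0364%. DESeq2 on the genes that edgeR tested also called it (adjusted p = 0.0243), 1 of 52 genes called or 0.5%, while DESeq2 run on every gene with a read (adjusted p = 0.469, with 0.623% of those genes called) and limma-voom (adjusted p = 0.565) did not. Over 18 alternatives the log2 fold change kept its direction and ran from 1.57 to 2.73. Since the genotypes did not overlap, leaving out a sample could hardly have turned that direction. Wild-type sample 2 set much of the size of the log2 fold change, since without that sample the value was 2.73.

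**Figure D1:**
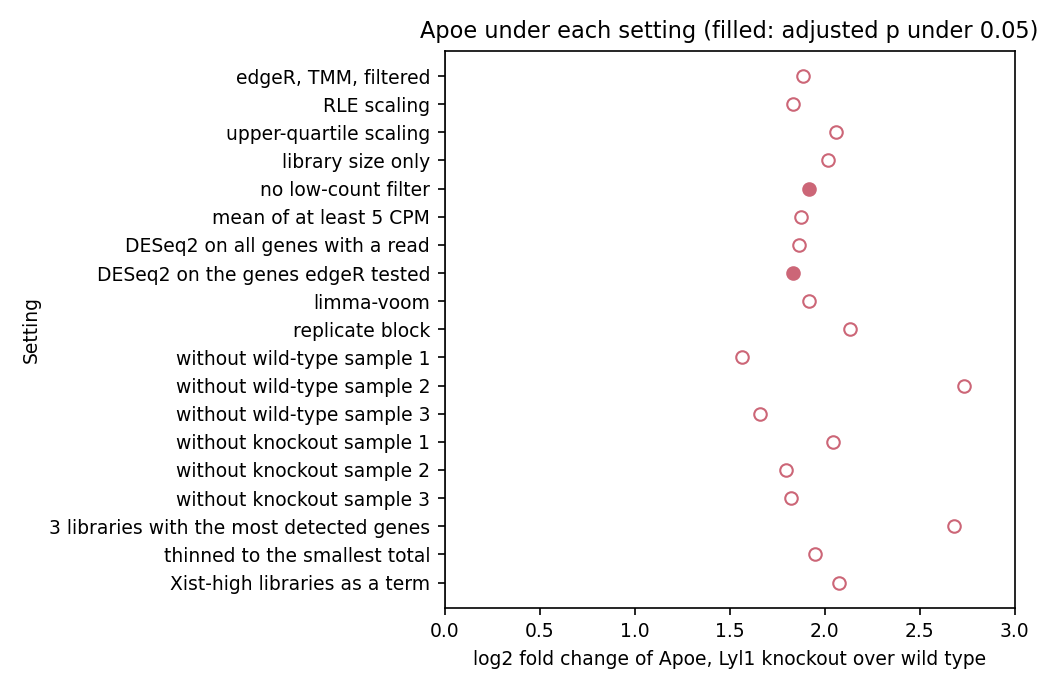
Log2 fold change of Apoe, knockout over wild type, under the edgeR fit with TMM scaling and each of 18 alternatives, with filled points where the adjusted p was under 0.05. Every point lies between 1.57 and 2.73, and only the fit without a low-count filter and DESeq2 on the genes edgeR tested are filled.

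The same direction was seen in measures that need no scaling between libraries. Per Abca1 read, Apoe had 1.83, 11.2 and 5.31 reads in wild-type samples 1 to 3 and 22.9, 21.8 and 29.2 in knockout samples 1 to 3. Per Lrp1 read it had 0.920, 2.53 and 1.56 against 5.26, 9.73 and 7.99. In both ratios every knockout sample lay above every wild-type sample. These ratios reuse the Apoe reads for which the gene was picked. They restate its difference without library scaling and are no further support for it. Within the 3 samples with the most detected genes, wild-type sample 3 and knockout samples 2 and 3, the log2 fold change of Apoe was 2.68 (edgeR, adjusted p = 0.679). With Xist-high libraries as a term in the fit, which leaves knockout sample 2 as the only knockout sample set against wild type, the log2 fold change was 2.08 (adjusted p = 0.9999). The part of sex in the Apoe difference was not tested.

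**Figure D2:**
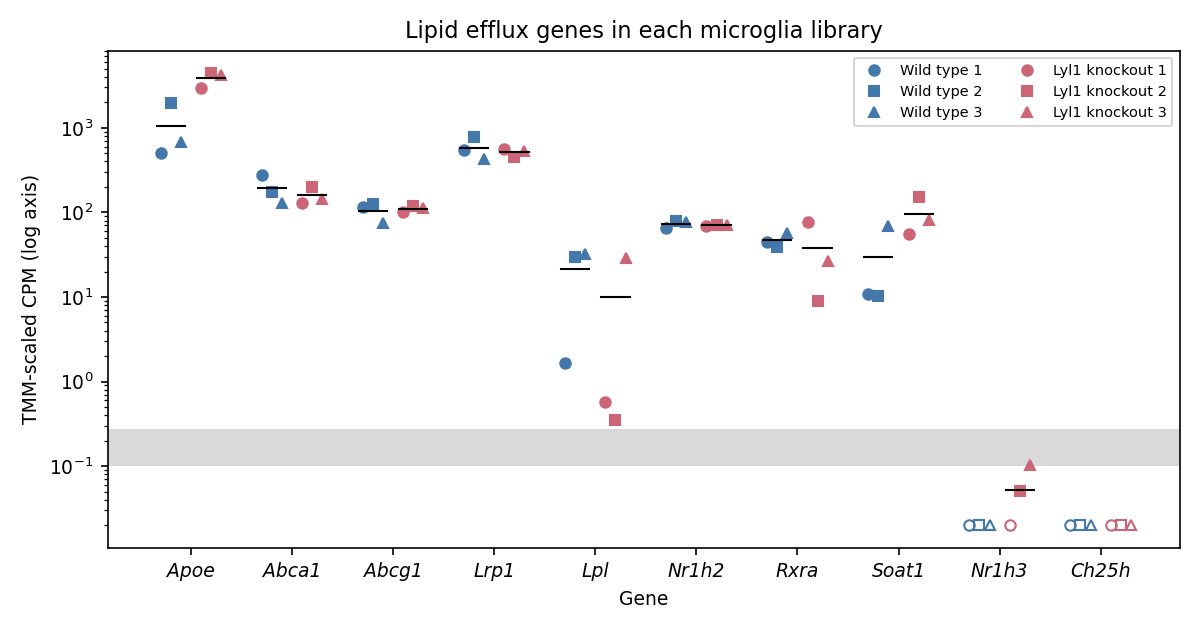
TMM-scaled CPM on a log axis of the 10 genes in each of 6 libraries, with black bars at the genotype means, open symbols for 0 reads drawn at the foot of the axis, and a grey band for the level of 3 reads (0.104 to 0.264 CPM). Apoe is the only gene whose genotypes do not overlap, where 5.97% of all tested genes were higher without overlap and 5.19% lower. Lpl and Soat1 are spread widely within genotypes, and Nr1h3 and Ch25h lie at or under the band.

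The 2 efflux transporters did not follow Apoe. Abca1 (chromosome 4, 53030787 to 53159895), which loads lipid onto lipid-poor ApoE, was at 276, 174 and 127 CPM in the wild-type samples and 130, 202 and 144 CPM in the knockout samples. The genotypes overlapped, with the highest and the lowest value both in wild type. Its log2 fold change was -0.28 (standard error 0.41; edgeR, adjusted p = 0.9999), and it turned to 0.086 without wild-type sample 1, the sample with the highest level. Abcg1 (chromosome 17, 31057675 to 31117988), which passes cholesterol on to lipid-bearing particles, was at 115, 124 and 75.1 CPM in the wild-type samples and 101, 119 and 112 CPM in the knockout samples, a log2 fold change of 0.077 with a standard error of 0.43. Its 3 knockout values fell inside the wild-type range, and its sign turned to -0.10 without wild-type sample 3.

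Lpl, the lipoprotein lipase (chromosome 8, 68880491 to 68907448), was either low or well above the floor, and not by genotype. Wild-type samples 1 to 3 had 19, 745 and 676 reads, which is 1.67, 29.6 and 32.2 CPM. Knockout samples 1 to 3 had 13, 7 and 838 reads, which is 0.572, 0.356 and 29.1 CPM. Wild-type samples 2 and 3 and knockout sample 3 were thus high and the other 3 samples low, 90.6-fold apart at the extremes. Wide spread in wild type was common at this level. The coefficient of variation of Lpl was 80.0% there, against a median of 111% over 3297 tested genes within 2-fold of its mean level. In knockout it was 165%, against a median of 82.4%. The log2 fold change of -1.08 had a standard error of 2.04, and it was -5.50 without knockout sample 3 (edgeR, unadjusted p = 0.0805) and -5.87 with Xist-high libraries as a term. Lpl and Apoe, both known as genes of the disease-associated microglia state, differed in pattern: knockout samples 1 and 2 had much Apoe and almost no Lpl.

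Lrp1, an endocytic receptor for ApoE (chromosome 10, 127538161 to 127621148), was the next most abundant member in CPM. It was at 549, 772 and 432 CPM in the wild-type samples and 566, 453 and 527 CPM in the knockout samples, with all knockout values inside the wild-type range. The log2 fold change was -0.18 (standard error 0.26) and turned to 0.095 without wild-type sample 2. An antisense gene model overlaps Lrp1 but shares 0 exonic bases with it.

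Of the 2 liver X receptors, Nr1h2 carried nearly all reads. Nr1h2 (chromosome 7, 44549616 to 44553951) was at 64.8, 78.9 and 76.9 CPM in the wild-type samples and 69.6, 70.8 and 70.0 CPM in the knockout samples. Its log2 fold change was -0.068 (standard error 0.53), turning to 0.056 under upper-quartile scaling and 0.033 with library size alone. The knockout values spanned less than the wild-type values, and their coefficient of variation of 0.881% was under the 2.48% that counting error alone would give at these depths.

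Nr1h3 (chromosome 2, 91184061 to 91202834) had 0 reads in every wild-type sample and 0, 1 and 3 in knockout samples 1 to 3. All 6 libraries together held 4 Nr1h3 reads (95% exact Poisson interval 1.09 to 10.2) against 9320 of Nr1h2. That is 2330 Nr1h2 reads per Nr1h3 read, with an exact 95% binomial interval of 910 to 8553 that covers counting error only. Both genotypes lay at or under the level of 3 reads, so no fold is given. A noncoding gene model on the same strand shares 34 exonic bases with Nr1h3, and reads there could be lost to both.

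Rxra, the partner of both receptors (chromosome 2, 27676440 to 27762957), was at 44.9, 38.5 and 57.7 CPM in the wild-type samples and 77.4, 8.94 and 26.4 CPM in the knockout samples. The knockout samples enclosed the wild-type range, with the highest level in sample 1 and the lowest in sample 2. Knockout sample 2 was also the sample with the most Apoe, so Apoe and Rxra did not run together. The log2 fold change of -0.32 (standard error 1.00) turned to 0.16 without knockout sample 2.

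Soat1, the cholesterol esterifying enzyme (chromosome 1, 156424525 to 156474331), was higher on average in knockout, but the genotypes overlapped. It was at 10.9, 10.4 and 68.8 CPM in the wild-type samples and 55.6, 151 and 82.0 CPM in the knockout samples. Wild-type sample 3 lay above knockout sample 1 and 6.64 times above the lowest wild-type sample. The log2 fold change was 1.68 (standard error 0.97; edgeR, adjusted p = 0.9999). Without wild-type sample 3 it was 3.18, and within the 3 samples with the most detected genes 0.77. The low wild-type samples 1 and 2 were also those with few genes detected, and the part this played was not tested.

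Ch25h (chromosome 19, 34473778 to 34475164), the enzyme of 25-hydroxycholesterol, had 0 reads in all 6 libraries. With 0 reads seen, as many as 3 could still be expected, or 0.104 to 0.264 CPM, a limit that covers counting error only. A noncoding gene model on the opposite strand shares 159 exonic bases with it, and reads there could be lost if strand was not used.

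Levels of different genes were compared as CPM per kilobase of exonic length in GENCODE M21. In wild type Apoe came first with 488 ± 369 CPM per kb, followed by Lrp1 (33.0 ± 9.73), Nr1h2 (21.9 ± 2.27), Abca1 (18.6 ± 7.33), Abcg1 (14.4 ± 3.59), Rxra (8.61 ± 1.79), Soat1 (3.07 ± 3.43) and Lpl (2.02 ± 1.62; SD, n = 3 each). Lrp1 and Nr1h2 did not overlap between samples, from 24.4 to 43.6 and from 19.3 to 23.5 CPM per kb. Neighbours that overlapped were Nr1h2 and Abca1, Abca1 and Abcg1, Abcg1 and Rxra, and Soat1 and Lpl, so their order is not settled by these samples. In knockout Apoe again came first, at 1807 ± 363 CPM per kb, and Soat1 (9.83 ± 5.04) stood before Rxra (6.89 ± 6.52), a pair that overlapped.

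The genes also differed in how much the samples of one genotype varied. In wild type the coefficient of variation of Apoe was 75.6%. That was higher than in each of 54 tested genes within 2-fold of its mean over all 6 samples, whose median was 16.3%. In knockout Apoe had 20.1%, against a median of 11.0%. Counting error accounts for 0.940% and 0.340%. The wild-type mean of Apoe, 1044 CPM, lay under that 2-fold window, so its wild-type variation was set against genes of a higher level. Nr1h2 was at the other end, with 10.4% in wild type, under which lay only 1.73% of the 3577 genes near its level. Lrp1 and Abca1 varied about as much in wild type as genes of their level, with 29.5% against a median of 27.8% and 39.5% against 43.3%.

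The genes nearest to Apoe in pattern were found by the mean absolute difference of log2(CPM + 1), each gene set to its own mean, over the 6 samples. The median difference was 1.28 over the 3593 tested genes that averaged 50 CPM or higher. The nearest were Smchd1 (0.38), a chromatin protein of X inactivation, Cmas (0.39), which activates sialic acid, Lipa (0.45), the lysosomal acid lipase that frees cholesterol from esters, Alox5 (0.46), the arachidonate 5-lipoxygenase, and Gramd1a (0.47), which carries cholesterol from the plasma membrane to the endoplasmic reticulum. Lipa and Gramd1a belong to the lists of lipid genes described next. Their likeness is a description over 6 samples and rests on the same genotype contrast.

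**Figure D3:**
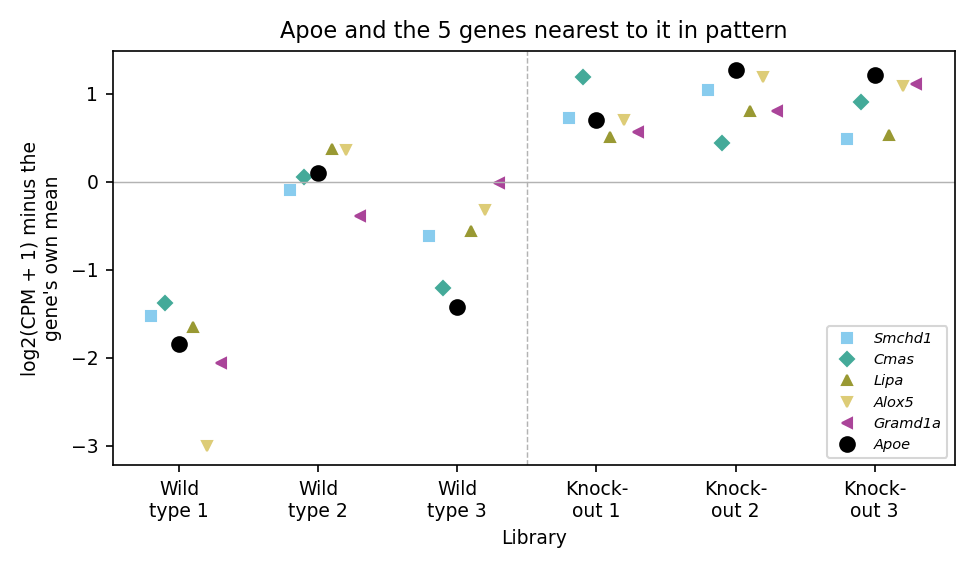
Log2(CPM + 1) minus each gene's own mean, on the vertical axis, in the 6 libraries for Apoe (black) and the 5 genes nearest to it. All 6 genes are lowest in wild-type sample 1 and lie above their own mean in all 3 knockout samples, and all but Gramd1a are higher in wild-type sample 2 than in wild-type sample 3.

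Other genes of the pathway were taken from 6 lists with 105 members, of which 64 were tested. None was called by edgeR (0%), with 28 higher, 36 lower and -0.080 as their median log2 fold change, against -0.029 over all 10394 tested genes. An unadjusted p under 0.05 was reached by 1 higher and 2 lower of the 64 genes, where 1.16% of all tested genes were higher and 1.67% lower. DESeq2 on the genes that edgeR tested called 1 of the 64, Lrp6, against 0.5% of all genes in that fit, while limma-voom and DESeq2 run on every gene with a read called 0. Non-overlapping genotypes were found in 8 higher and 3 lower members, where 5.97% of all tested genes were higher and 5.19% lower. Up to 2 genes of each list are named below for the smallest p, so their lack of overlap is no further support.

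Of 17 further LXR target genes 10 were tested, 3 higher and 7 lower, and their median on the log2 scale was -0.53, opposite in sign to Apoe. Mylip, a ubiquitin ligase, was at 315 ± 41.1 and 220 ± 75.5 CPM in the wild-type samples and knockout, with a log2 fold change of -0.52 and a standard error of 0.33. Arl4c, a small GTPase, was at 169 ± 132 and 104 ± 8.31 CPM, and its sign turned to 0.17 without wild-type sample 1, the only sample far from the rest. Srebf1, the LXR-driven regulator of fatty acid synthesis, was at 64.3, 16.5 and 42.1 CPM in the wild-type samples and 2.38, 73.5 and 12.7 CPM in the knockout samples, so the genotypes overlapped widely. Srebf1 was named after its values were seen. Without wild-type sample 1 the median of this list was 0.076.

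Of 14 further lipoprotein and lipase genes 5 were tested, 1 higher and 4 lower, with a median of -0.47 that turned to 0.022 without wild-type sample 2. The higher one, Lipa (chromosome 19, 34492318 to 34527474), was at 31.8, 132 and 68.5 CPM in the wild-type samples and 146, 178 and 148 CPM in the knockout samples, with no overlap, a log2 fold change of 1.02 and a standard error of 0.57. Lmf1, which matures lipoprotein lipase, was at 158 ± 91.2 and 106 ± 48.7 CPM. Clu, the other main apolipoprotein of the brain, and Apod were listed at 0 reads in all 6 libraries, named after their values were seen. The annotation and strand setting behind the counts are not given, so whether these zeros come from the counting was not tested.

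Of 18 further lipoprotein receptors 12 were tested, 4 higher and 8 lower, with a median of -0.31. This median turned to 0.15 without wild-type sample 2 and to 0.080 in the 3 samples with the most detected genes, and was -0.71 with the Xist term. Lrp6, a Wnt coreceptor of this family, was at 233, 106 and 23.7 CPM in the wild-type samples and 1.01, 4.37 and 13.6 CPM in the knockout samples. Its genotypes did not overlap, but both spread over more than their gap, and the log2 fold change of -4.26 had a standard error of 1.28. The call differed by tool, with adjusted p = 0.9999 by edgeR and adjusted p = 0.0178 by DESeq2 on the same genes. Sorl1, a sorting receptor that binds ApoE, was at 47.3 ± 23.7 and 14.3 ± 16.3 CPM with overlap. An antisense gene model shares 185 exonic bases with Sorl1, and reads there could be lost if strand was not used.

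Of 15 further ABC transporters 9 were tested, 6 higher and 3 lower, with a median of 0.25. The size of this median depended on the fit, from 0.12 without wild-type sample 2 to 2.10 with limma-voom, with 1.69 under the replicate block and 1.18 in the 3 samples with the most detected genes. Abcd2, which imports very long-chain fatty acids into peroxisomes, was at 1.06, 24.1 and 42.8 CPM in the wild-type samples and 87.4, 163 and 153 CPM in the knockout samples. Its genotypes did not overlap, and the log2 fold change was 2.57 (standard error 1.12; edgeR, adjusted p = 0.9999). Abca7, a lipid transporter related to Abca1, was at 6.46 ± 5.63 and 35.5 ± 30.4 CPM, and its log2 fold change of 2.46 turned to -2.52 with Xist-high libraries as a term.

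Of 19 nuclear receptor partners and cofactors 11 were tested, 7 higher and 4 lower, with a median of 0.31, and of 0.086 to 0.46 when a sample was left out, lowest without wild-type sample 2. Med1, a Mediator subunit that contacts nuclear receptors, was at 58.4, 119 and 33.1 CPM in the wild-type samples and 22.4, 15.3 and 24.2 CPM in the knockout samples. Ncoa3, a coactivator, went the other way, at 22.2, 10.8 and 25.3 against 29.8, 107 and 60.9 CPM. The genotypes did not overlap in either gene, and their log2 fold changes were -1.77 and 1.76 with standard errors of 0.87 and 0.92. Both genes were named for their small p in this same comparison. Sulf2, on the opposite strand, shares 154 exonic bases with Ncoa3, and reads there could be lost if strand was not used.

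Of 22 genes of cholesterol storage, oxysterols and transport inside the cell 17 were tested, 7 higher and 10 lower, with a median of -0.18. Its sign was not stable: the median was above 0 in 5 of 18 alternatives and ran from -0.62 with the Xist term to 0.20 in the 3 samples with the most detected genes. It was 0.15 without wild-type sample 2, 0.094 without knockout sample 2 and -0.43 without wild-type sample 1. Gramd1a (chromosome 7, 31130127 to 31155896) was at 46.6, 150 and 196 CPM in the wild-type samples and 294, 347 and 428 CPM in the knockout samples, without overlap, with a log2 fold change of 1.44 and a standard error of 0.52. Antisense gene models share up to 420 exonic bases with Gramd1a, so part of its reads could be theirs. Npc2, which takes cholesterol out of the lysosome, was at 1034, 950 and 523 CPM in the wild-type samples and 513, 544 and 538 CPM in the knockout samples. Wild-type sample 3 lay within the knockout range, and the log2 fold change of -0.65 (standard error 0.28) was 0.056 within the 3 samples with the most detected genes.

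**Figure D4:**
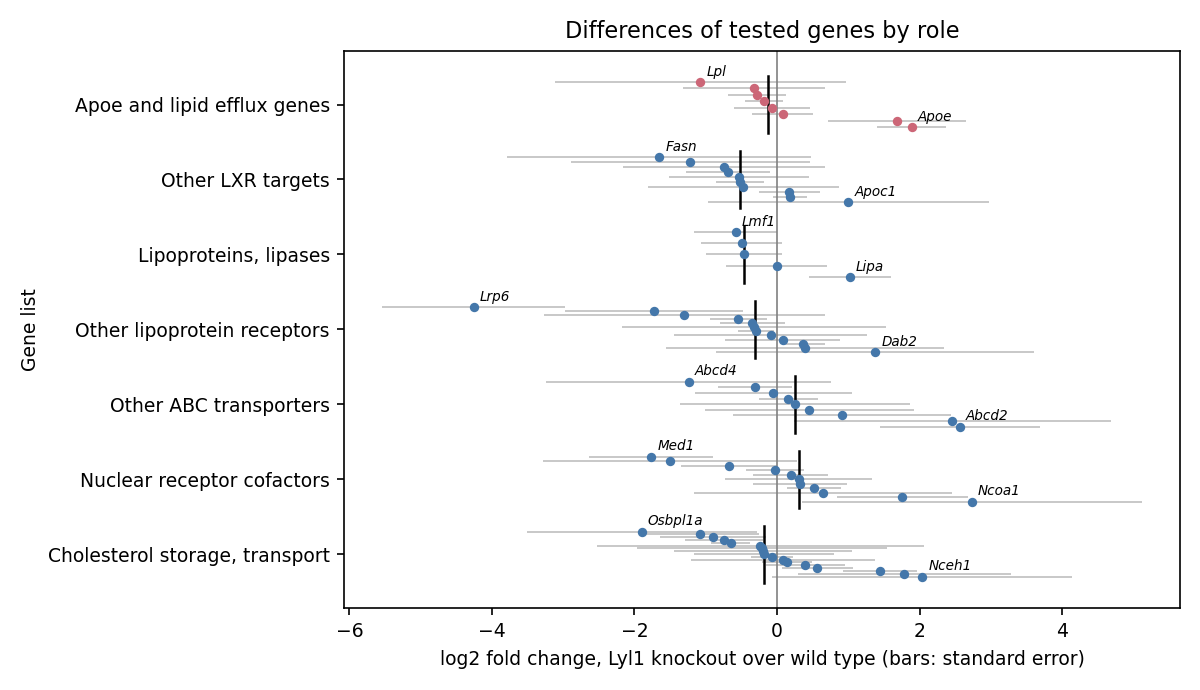
Log2 fold change, knockout over wild type, of each tested gene (points, with bars for the standard error) for the group of Apoe and the 6 further lists, with black lines at the list medians and the lowest and highest gene of each list named. Apoe and Soat1 lie to the right of the other 6 tested genes of their group, and every list has genes on both sides of 0.

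None of the genes read beside Apoe on chromosome 7 had every knockout sample above every wild-type sample. They were read after the values of Apoe were known. Nectin2 was at 46.6, 104 and 50.0 CPM in the wild-type samples and 125, 67.3 and 41.4 CPM in the knockout samples, with overlap. Relb was at 54.9 ± 13.4 and 19.6 ± 21.5 CPM, lower in knockout without overlap, where 5.19% of all tested genes were lower without overlap. Tomm40 (19701313 to 19715438), a mitochondrial import pore, was at 63.8, 56.9 and 49.0 CPM in the wild-type samples and 71.2, 90.0 and 50.3 CPM in the knockout samples, with overlap. Apoc1 (19689481 to 19692660), the neighbouring apolipoprotein, had 3, 6 and 50 reads across wild-type samples 1 to 3 and 96, 31 and 0 across knockout samples 1 to 3. Apoc4 and Apoc2 had 0 reads in all 6 libraries. A protein-coding gene model on the same strand shares 119 exonic bases with Apoc4 and 646 with Apoc2, and reads there could be lost. An antisense model shares 135 exonic bases with Nectin2 and 258 with Tomm40, where reads could be lost if strand was not used. Clptm1 (19631571 to 19665033) was at 416 ± 127 and 318 ± 96.2 CPM. Knockout sample 3 thus had 121046 Apoe reads and 0 Apoc1 reads.

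Markers of other cells that make ApoE were set beside it. Of 16 astrocyte markers 15 had a mean under 1 CPM and 6, Gfap, Aldh1l1 and Aldoc among them, had 0 reads in every library. The exception, Slc1a3, was at 176 to 408 CPM in the wild-type samples and 170 to 258 CPM in the knockout samples, and the other 15 together summed to 0.0477 to 4.06 CPM and 0.0440 to 1.42 CPM. Apart from Slc1a3, astrocyte markers were thus near 0 in all samples, and the genotypes overlapped in Slc1a3. Of 12 border macrophage markers 10 had a mean under 1 CPM, and all but Stab1 summed to 0.477 to 95.8 CPM in the wild-type samples and 0.457 to 16.2 CPM in the knockout samples. The whole border macrophage list summed to 440 ± 26.6 CPM in the wild-type samples and 299 ± 116 CPM in the knockout samples (exact 2-sided permutation p = 0.1, the smallest that 3 against 3 samples allow, and 0.4 after Benjamini-Hochberg adjustment over 8 marker lists). The part of astrocytes and border macrophages in the Apoe difference was not tested. In bulk samples, more Apoe RNA per cell and more cells with Apoe cannot be told apart. Globin and other erythroid markers summed to 227, 65.2 and 0.243 CPM for knockout samples 1 to 3 and to 0.159 to 1.23 CPM in wild type, and their part in the Apoe difference was not tested.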

How the data were processed

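The authors deposited raw counts of reads per gene symbol for the 6 samples, not normalized. Per the submitters' processing notes, the build was GRCm38 and the tools were featureCounts 1.5.1 (Subread), STAR 2.5.2b, limma 3.28.21 and CASAVA 1.8.2, named without roles. Neither the annotation nor the strand setting is given in those notes. Per the labels' protocols the cDNA was amplified over 14 or 15 PCR cycles without molecular identifiers, so PCR copies were counted as reads and intervals cover counting error only.

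In R 4.3.3, 92 ERCC entries were left out, genes were kept by edgeR 4.0.16 filterByExpr (minimum count 10, minimum total 15; 10394 genes), libraries were scaled by TMM, and genotypes were compared with the quasi-likelihood test of edgeR (2-sided; adjusted over all tested genes by Benjamini-Hochberg; threshold 0.05), with genotype as the only term. A positive log2 fold change means higher in knockout. Alternatives were other scalings and filters, DESeq2 1.42.0, limma-voom (limma 3.58.1), a replicate block and leaving out each sample. The 3 samples with the most genes, thinning to 12753945 reads and an Xist term were added after seeing the data.

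The genes, lists and rules were chosen with earlier results of these data known. Named genes are the 10 genes of the group, up to 2 tested genes of each further list with the smallest p, the 5 nearest to Apoe, Lyl1, and top markers; the top microglia marker is not reported here. Marker lists of monocytes and neutrophils (summing to 0.559 to 6.91 CPM), neurons (0.0954 to 8.01 CPM), oligodendrocytes (47.4 to 379 CPM) and endothelial and mural cells (27.3 to 180 CPM) were also summed. Positions and exonic lengths are from GENCODE M21 on GRCm38, in which 97.2% of tested symbols had an entry. Promoter windows are RefSeq's, with an entry for 8 of the 10 genes.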

Additional observations from a re-analysis of the deposited data

How the results depend on the processing

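The count of genes called was 0 with edgeR in the fit reported here, 8 without the low-count filter, 137 with DESeq2 on all genes with a read and 52 with DESeq2 on the genes edgeR tested, and 0 in each of the other settings. Of the group of Apoe, 1 gene was called without the filter and with DESeq2 on the genes edgeR tested, Apoe in both. Genotypes did not overlap for 1 of the 8 tested genes of the group, where 5.97% of all tested genes were higher and 5.19% lower. The count was 2 with RLE scaling (Apoe and Nr1h2) and 1 to 3 when a sample was left out. No share over all genes was taken in those settings. Apoe was among those genes each time, which leaving out a sample could hardly change, since its genotypes were already apart. Nothing is read from these counts. Directions of genes that were not called turned for Nr1h2 with upper-quartile scaling (0.056) and library size (0.033), for Abca1 (0.45), Lrp1 (0.19) and Npc2 (0.056) in the 3 samples with the most genes, and for Abca1 (0.068) and Abca7 (-2.52) with the Xist term. When samples were left out one at a time the log2 fold change ran from -0.49 to 0.086 for Abca1, from -0.10 to 0.24 for Abcg1, from -0.14 to 0.0091 for Nr1h2, from -0.35 to 0.095 for Lrp1, from -1.41 to 0.16 for Rxra, from -5.50 to -0.50 for Lpl and from -1.03 to 0.17 for Arl4c. The cause of these changes was not tested. The median over all tested genes moved by 0.12 on the log2 scale with upper-quartile scaling. It moved by 0.23 with limma-voom, 0.21 with the replicate block and -0.23 with the Xist term. The list medians given for these fits are not corrected for such shifts.

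With the replicate block 0 genes were called and the log2 fold change of Apoe was 2.13 (edgeR, adjusted p = 1). Same-numbered samples deviated together little (r of 0.01, -0.003 and 0.03 over genes), and pairs with different numbers had r from -0.04 to 0.01. Correlations this near 0 cannot settle whether the numbers pair samples. In the fit of the 3 samples with the most genes the lone wild-type sample is assumed to vary like the knockout samples. Genes with few reads, Nr1h3 and Ch25h above all, are limited by depth. Lpl varied by 80.0% in wild type and 165% in knockout, where counting error accounts for 13.6% and 27.1%. The source of the rest of its spread was not tested.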
